A study of Mus musculus with 8 samples.

Results

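The Mef2 factors and the muscle cofactors that work with them were followed as 10 genes: Mef2a, Mef2c, Mef2d, Srf, Myocd, Smyd1, Akap6, Hdac9, Klf5 and Nfatc2. They were chosen by name and all 10 were found as single, unmerged loci in each of the 3 deposited gene tables, among 23115 loci with a gene symbol in the female knockout table, 22923 in the male knockout table and 22777 in the KI table. The RNA came from satellite cells (the stem cells of skeletal muscle) of B6/129 mice, sorted for a Cre-dependent red reporter, grown with 2.5 µM 4-hydroxytamoxifen and taken through 24 h of differentiation into myocytes. The labels name Pax7-CreER and Rosa26-Floxed-TdTomato in WT female cells and UTX-Floxed beside those alleles in KO females, so the WT carries the Cre and the reporter too. No genotype is given for the male and KI samples, and the allele called KI is not described. UTX, encoded by Kdm6a, removes methyl groups from lysine 27 of histone H3. CreER is driven from Pax7 and needs tamoxifen, so the floxed gene can be lost in cells with Pax7 active when tamoxifen was present. Reporter sorting selects cells in which Cre had acted on the reporter, which does not measure loss of the floxed gene. The age of the mice and the number pooled per library are not stated.

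There were 8 libraries in 6 groups. Female WT, female KO, male WT and male KO had 1 library each, and female Ctrl-KI and female KI had 2 libraries each that the authors deposited as 1 pooled column per group. Each comparison therefore sets 1 column against 1 column, and no single comparison has a replicate check or a p-value. Levels are FPKM (fragments scaled by transcript length and library size), which compare genes per length, and each carries a deposited lower and upper confidence bound of unstated level, called its interval here. Ratios were formed within a table as log2((FPKM + 1)/(FPKM + 1)), mutant over control, which understates the change of low genes. Dates and batches of the libraries were not given, so neither can be told apart from the groups.

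Mef2 proteins are MADS-box transcription factors that bind A/T-rich sites in muscle genes. They do not start the muscle programme on their own: they act with the myogenic factors MyoD and myogenin to raise it. Srf is the other MADS-box factor of muscle and binds CArG boxes. Myocd is its coactivator in heart and smooth muscle. Class IIa deacetylases such as Hdac9 hold Mef2 proteins silent, and kinases relieve that block. Calcium also signals through calcineurin to NFAT proteins. Smyd1 is a muscle methyltransferase whose gene is a Mef2 target in the heart, Akap6 (mAKAP) is a scaffold at the nuclear envelope that gathers protein kinase A and calcineurin, and Klf5 is a Krüppel-like factor that joins MyoD and Mef2 at muscle genes.

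Promoter windows, the 250 bases upstream of a RefSeq gene start (build GRCm38.p6), were found for 8 of the 10 genes, in 12 windows. Klf5 and Myocd had none. The windows of 3 genes are shown because they stand at the ends of the range described below. These are Srf, with the smallest span of deposited levels over the columns of the separately estimated tables, Mef2c, with the lowest male ratio, and Smyd1. By the ratio with 1 FPKM added, Smyd1 alone was at least 2-fold lower in both sexes. Without the added 1 FPKM the low gene Nfatc2 was too, at 28.0% and 25.9% of WT in females and males. Capitals mark CArG boxes.
Srf (GRCm38.p6 chr17:46556163-46556412, minus strand): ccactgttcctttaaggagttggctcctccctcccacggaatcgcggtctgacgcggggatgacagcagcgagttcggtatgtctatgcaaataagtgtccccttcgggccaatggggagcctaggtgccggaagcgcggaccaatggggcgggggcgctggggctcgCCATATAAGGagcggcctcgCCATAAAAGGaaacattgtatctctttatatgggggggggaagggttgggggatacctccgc
Mef2c, first start (GRCm38.p6 chr13:83503784-83504033, plus strand): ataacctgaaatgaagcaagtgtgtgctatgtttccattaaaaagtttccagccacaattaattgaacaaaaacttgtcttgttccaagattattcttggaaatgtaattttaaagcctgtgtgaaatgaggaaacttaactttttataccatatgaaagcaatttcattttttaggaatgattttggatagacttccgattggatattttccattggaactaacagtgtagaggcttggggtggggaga
Smyd1 (GRCm38.p6 chr6:71262282-71262531, minus strand): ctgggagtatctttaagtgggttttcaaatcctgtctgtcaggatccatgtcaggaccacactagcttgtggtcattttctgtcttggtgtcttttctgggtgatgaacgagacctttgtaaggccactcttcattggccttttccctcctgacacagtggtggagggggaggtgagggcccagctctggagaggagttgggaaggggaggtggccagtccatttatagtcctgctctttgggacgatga

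The Srf window held 2 CArG boxes, CCATATAAGG starting 82 bases before the gene start and CCATAAAAGG starting 62 bases before it. Of all 32851 mouse windows of this length, 1.47% held a CArG box on either strand. No other member's window held one. The Mef2 consensus was in none of the 12 windows and in 2.92% of all windows. The E-box CAGCTG, which also counts as a CANNTG, was in both Hdac9 windows and in 13.0% of all windows, and any CANNTG was in 66.2% of all windows. The first Mef2c window held CAAGTG and CATATG, the Akap6 window CAGTTG and CATCTG, and the Smyd1, Srf, Mef2a and Mef2d windows held no CANNTG. These are matches of letters in short windows, and binding was not measured. The base composition of the windows also differed, from 33.6% G and C in the first Mef2c window to 73.2% in that of Mef2d, against a median of 52.4% over all windows.

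In female KO cells, 8 of the 9 members that reached 1 FPKM lay below WT and 2 of them, Smyd1 and Nfatc2, were at least 2-fold lower, with none at least 2-fold higher. Over all 12344 genes tested, 4.4% were at least 2-fold lower, 4.49% at least 2-fold higher and 56.7% below WT. In male KO cells all 9 lay below WT and 7 were at least 2-fold lower, where the shares over 11440 genes were 6.47% and 51.6%, and 9.9% were at least 2-fold higher. In KI cells 8 of 9 lay below Ctrl-KI and 0 reached 2-fold either way, against 0.893% of 11084 genes at least 2-fold lower, 3.86% at least 2-fold higher and 57.4% below control. The members' median log2 ratio was -0.58 in female KO, -1.48 in male KO and -0.31 in KI cells, beside medians over all genes of -0.08, -0.02 and -0.04. The counts depend on how the columns are scaled. With TPM over all loci, in which every locus of a column, also those without a symbol, enters the total, 2 of 9 members were at least 2-fold lower in female KO, 7 of 8 in male KO and 6 of 9 in KI cells. The shares of all genes at least 2-fold lower were then 3.14%, 24.6% and 15.7%, and those at least 2-fold higher 8.81%, 2.47% and 1.83%. The female table had 0 loci without a symbol, against 5680 in the male and 5971 in the KI table. This rescaling is therefore not alike in the 3 tables, here and in the lists below. The intervals of the 2 columns were apart for 0 of 9 members in either knockout table and for 2 of 9, Mef2a and Hdac9, in the KI table, where 3.73% of genes were apart and lower and 8.27% apart and higher. The corresponding shares lower and higher were 0.235% and 0.664% in female KO and 0.262% and 0.603% in KO males. Myocd was the member that did not reach 1 FPKM.

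**Figure D1:**
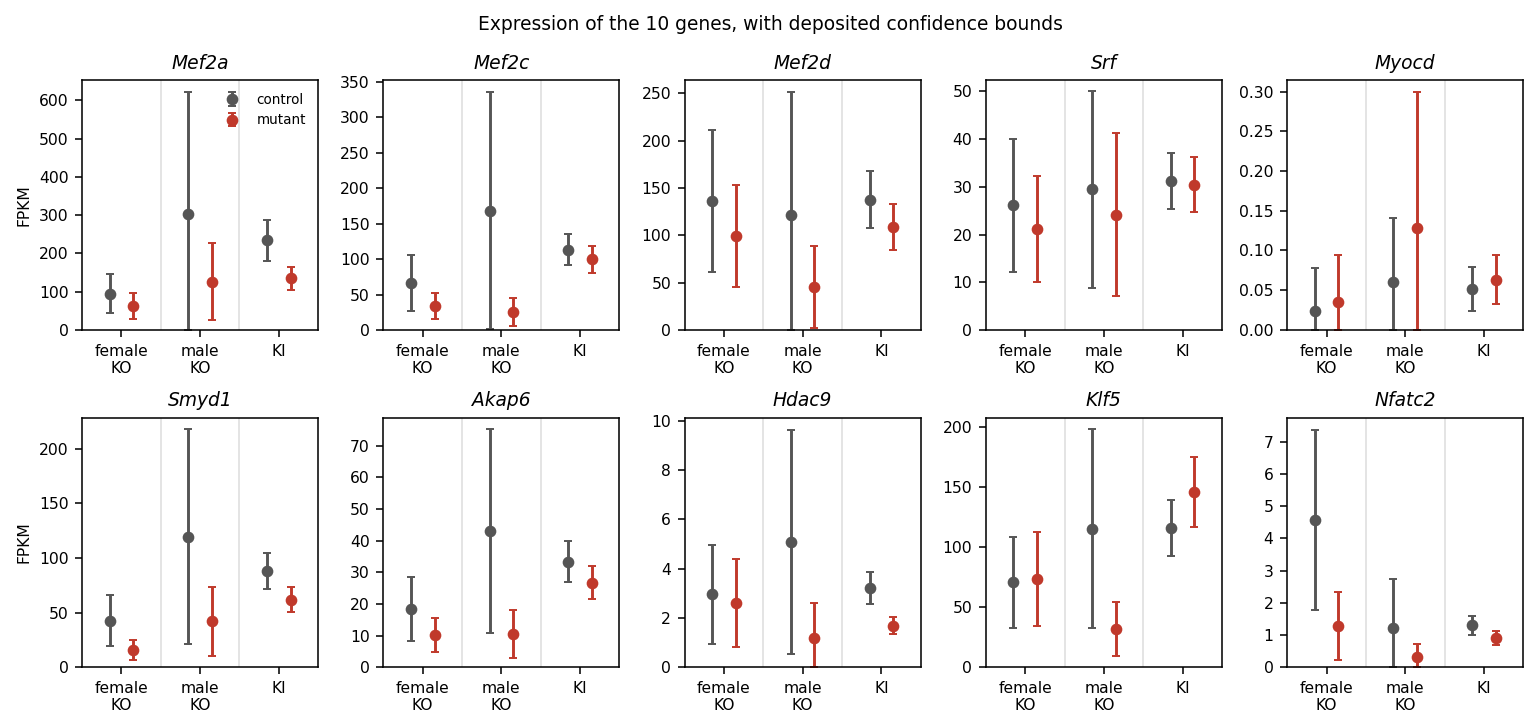
FPKM of each of the 10 genes (vertical axes, linear, each on its own scale) in the control column (grey) and mutant column (red) of the female KO, male KO and KI tables, with bars for the deposited confidence bounds. The mutant point lies below its control for all genes but Klf5 and Myocd in the female KO and KI panels and for all but Myocd in the male KO panel, and the bars of control and mutant are apart only for Mef2a and Hdac9 in the KI table.

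Median interval widths in the control columns, as a share of the FPKM, were 118% (female), 165% (male) and 39.7% (KI). FPKM tables hold no total count. Below 0.3 FPKM single reads are visible as steps, and the commonest mutant-to-control step ratio was 0.667 in the female, 0.983 in the male and 0.844 in the KI table, so that 1 read was worth less in the female KO and KI columns than in their controls. Rescaling to TPM over every locus moved the share of higher genes among the 2-fold calls from 60.5% to 9.12% in the male table and from 81.2% to 10.4% in the KI table, with medians over all genes of -0.70 and -0.77. Over loci with a symbol the shares were 72.2% and 86.3%, and 73.7% in the female table against 50.5% as deposited; with median-centred ratios the female share was 63.2%. Using non-overlapping intervals as the call gave 73.9%, 69.7% and 68.9% (female, male, KI). The pseudocount of 5 FPKM gave 48.3% in the male table. Kdm6a itself (mm9 chromosome X, 17739793 to 17856484) was 20.8 and 16.9 FPKM in WT and KO females, 7.87 and 2.08 in WT and KO males, and 12.8 and 13.2 in the Ctrl-KI and KI columns, over the whole gene and not the floxed part, so the level checks the deletion only weakly.

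A Mef2 gene was the most abundant member in 5 of the 6 columns. All 3 Mef2 genes lay below their control in every table as deposited, and their 9 ratios also lay below the median of all genes in the same table. Mef2a (mm9 chromosome 7, 74378717 to 74517744 in the female table) was 94.9 FPKM in WT females and 63.3 in KO females, 303 and 125 in WT and KO males, and 234 and 135 in the Ctrl-KI and KI columns. The mutant was lower in every table, with log2 ratios of -0.58, -1.27 and -0.78. In the KI table the interval of the control, 181 to 287 FPKM, lay wholly above that of KI, 105 to 165 FPKM. In the male table the interval of WT Mef2a ran from 0 to 621 FPKM, so the male difference is poorly bounded, and in the female table the intervals overlapped.

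Mef2c, the Mef2 gene that differentiating myoblasts switch on through myogenin and MyoD (mm9 chromosome 13, 83643033 to 83806684), was 66.4 FPKM in WT females and 33.5 in KO females. Male cells held 168 FPKM in WT and 25.4 in KO, and Ctrl-KI and KI cells held 113 and 99.6 FPKM. The KO columns thus held 50.5% and 15.1% of the WT level, while KI held 88.0% of its control, with intervals that overlapped in all 3 tables. The male log2 ratio of -2.68 was the lowest of any member, and 0.402% of the genes tested in that table had a ratio as low or lower. The WT male interval was again wide, 1.20 to 335 FPKM, against 6.27 to 44.5 FPKM in KO.

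Mef2d, the third Mef2 gene of muscle (mm9 chromosome 3, 87946317 to 87973089), was 136 and 99.3 FPKM in WT and KO females, 121 and 45.7 in WT and KO males, and 138 and 109 in the Ctrl-KI and KI columns. Control levels were close to each other in the 3 tables, unlike those of Mef2a and Mef2c, although the tables were estimated separately and levels were not tested across them. The log2 ratios were -0.45, -1.39 and -0.33, with overlapping intervals throughout. The deposited Mef2d locus was not the same in the 3 tables: it spanned 26.8 kb in the female, 35.8 kb in the male and 45.7 kb in the KI table, beside 30.2 kb for the RefSeq gene, so transcripts counted for it may differ.

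Summed over the 3 genes, Mef2 expression was 297 FPKM in WT females and 196 in female KO, 593 in WT males and 197 in male KO, and 485 in Ctrl-KI and 344 in KI cells. The mutant sum was 65.9%, 33.2% and 70.9% of its control. The makeup of the sum moved in different ways. Mef2c gave 22.3% of it in WT females and 17.1% in female KO, 28.4% and 12.9% in WT and KO males, but 23.3% and 28.9% in the Ctrl-KI and KI columns. Mef2a gave 51.2% of the sum in WT males and 63.8% in male KO, whereas its part was 48.2% in Ctrl-KI and 39.3% in KI cells and stood at 31.9% and 32.3% in WT and KO females. These shares are of single columns, and the difference between tables was not tested.

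**Figure D2:**
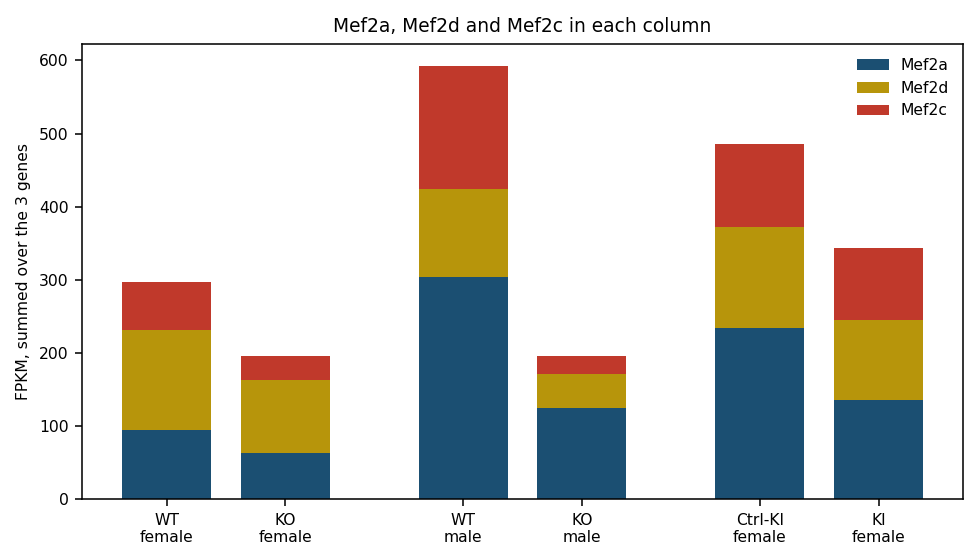
Stacked FPKM of Mef2a (blue, bottom), Mef2d (yellow, middle) and Mef2c (red, top) in the 6 columns, on a linear axis from 0. The summed height is lower in each mutant column than in its control, from 593 to 197 FPKM in males, and the red part shrinks most in KO males.

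By order of level within a column, Mef2d stood first in WT and KO females, Mef2a in WT males, male KO and Ctrl-KI cells, and Klf5 in KI cells. Neighbours in the upper part of the order mostly had overlapping intervals, so their order is not settled. In Ctrl-KI cells, however, Mef2a was above Mef2d with intervals apart, and Smyd1 was above Akap6 with intervals apart. In KI cells Mef2c was above Smyd1 and Smyd1 above Srf with intervals apart. Hdac9 and Nfatc2 held the places above Myocd in all 6 columns.

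Srf (mm9 chromosome 17, 46683788 to 46693111) was 26.1 FPKM in WT females and 21.1 in KO females, 29.5 and 24.1 in WT and KO males, and 31.1 and 30.4 in the Ctrl-KI and KI columns. The highest column was 1.47 times the lowest, the smallest such span among the 10 members. The largest was 14.3, of Nfatc2, and those of Smyd1 and Mef2d were 7.50 and 3.02. These spans cross tables that were estimated separately, and levels were not tested across them. The log2 ratios of Srf were -0.29, -0.28 and -0.03, and the intervals of each pair overlapped along most of their length. Its KI ratio was 0.01 after median-centring and 0.07 with TPM over loci with a symbol, so the sign is not determined. With TPM over all loci the ratio was -0.996 in male KO and -0.83 in KI cells, where the medians of all genes were -0.70 and -0.77. Myocd (mm9 chromosome 11, 64990072 to 65083491) was 0.0234 and 0.0349 FPKM in WT and KO females, 0.0601 and 0.128 in WT and KO males, and 0.0516 and 0.0635 in the Ctrl-KI and KI columns. It stayed far under 1 FPKM in all 6 columns, and no fold is read from such values.

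Smyd1 (mm9 chromosome 6, 71163934 to 71212275) was 42.7 FPKM in WT females and 15.9 in female KO, 119.6 and 42.1 in WT and KO males, and 88.4 and 62.1 in the Ctrl-KI and KI columns. Its ratio was alike in the 2 sexes: KO held 37.3% of WT in females and 35.2% in males, log2 ratios -1.37 and -1.48, and 1.24% and 3.21% of genes tested had a ratio as low or lower. In females the KO value lay below the whole WT interval of 19.5 to 66.0 FPKM, though the interval of KO, 7.04 to 24.8 FPKM, still reached into it. In KI cells the ratio was -0.50, with an interval of 50.3 to 73.9 FPKM against 71.6 to 105 FPKM in the control, which overlap by a small margin.

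Akap6 (mm9 chromosome 12, 53800370 to 54252002) was 18.4 and 10.2 FPKM in WT and KO females, 43.1 and 10.7 in WT and KO males, and 33.4 and 26.8 in the Ctrl-KI and KI columns. The KO values of the 2 sexes were near each other while the WT values were not, although levels were not tested across these separately estimated tables. The log2 ratios were -0.79, -1.92 and -0.31. In males the KO value was just below the lower WT bound of 10.97 FPKM.

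The Mef2 repressor Hdac9 (mm9 chromosome 12, 35056362 to 35213754) was 2.96 FPKM in WT females and 2.60 in KO females, close to each other, and 5.09 in WT males and 1.18 in KO males. In the KI table it was 3.21 FPKM in Ctrl-KI and 1.69 in KI cells. The log2 ratios were -0.14, -1.48 and -0.65. The KI intervals, 2.56 to 3.86 and 1.33 to 2.05 FPKM, were apart, whereas those of both knockout tables overlapped, with the male KO interval reaching 0. The deposited Hdac9 locus covered 157.4 kb, 18.1% of the length of the RefSeq gene, so these values count only part of the transcripts of that gene. At these levels the pseudocount matters: the male ratio was -0.71 with 5 FPKM and the KI ratio ranged from -0.30 with 5 FPKM to -0.89 with 0.1 FPKM.

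Klf5 (mm9 chromosome 14, 99697910 to 99712628) was the member whose ratio had no common direction. It was 70.9 and 73.7 FPKM in WT and KO females, 116 and 32.1 in WT and KO males, and 116 and 146 in the Ctrl-KI and KI columns. The log2 ratios were 0.06, -1.82 and 0.32, so the male KO column alone was low, at 27.8% of its WT and below the lower WT bound of 32.5 FPKM. KI lay above the upper Ctrl-KI bound of 139.8 FPKM, with overlapping intervals. With TPM over all loci, which shifted the median of all genes in the KI table to -0.77, the KI ratio was -0.50, still above that median.

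Nfatc2, which encodes a calcineurin-regulated NFAT protein that acts in myotube growth (mm9 chromosome 2, 168301910 to 168427155), was 4.57 and 1.28 FPKM in WT and KO females, 1.23 and 0.319 in WT and KO males, and 1.30 and 0.916 in the Ctrl-KI and KI columns. KO held 28.0% of WT in females and 25.9% in males, and KI 70.5% of its control. Because the levels are low, the pseudocount set the male log2 ratio: -0.76 with 1 FPKM, -1.67 with 0.1 FPKM and -0.23 with 5 FPKM. Its male intervals both reached 0, while in females the KO value lay below the WT bound of 1.77 FPKM.

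**Figure D3:**
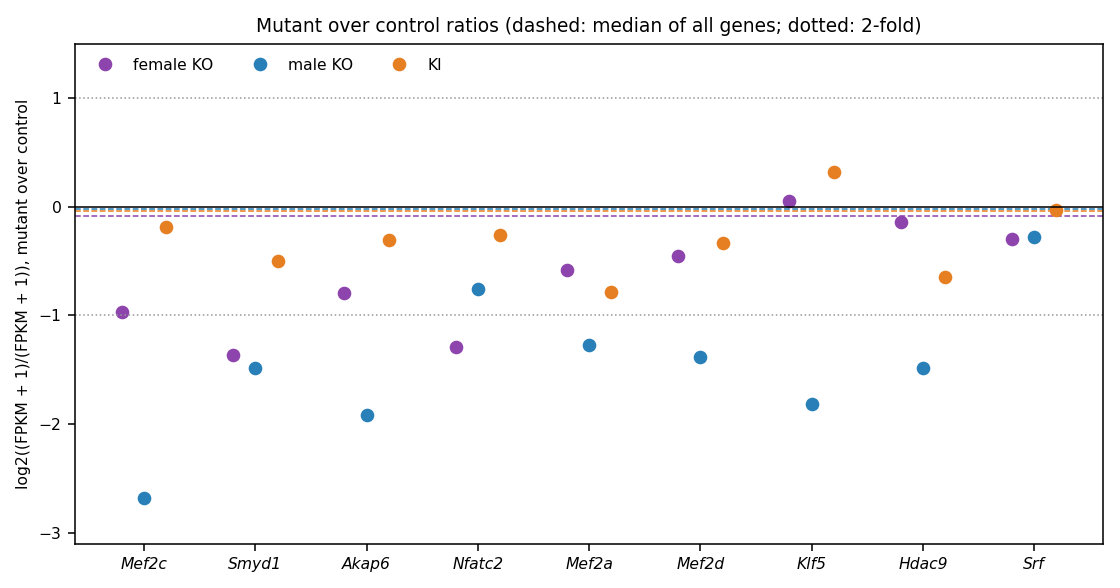
Mutant over control log2 ratios (vertical axis, pseudocount 1 FPKM) of the 9 genes above 1 FPKM in the female KO (purple), male KO (blue) and KI (orange) tables, ordered by the mean of both sexes. Dashed lines give the median of all genes in each table, and dotted lines mark 2-fold; blue points reach 2-fold for 7 genes, purple points for Smyd1 and Nfatc2, and no orange point does.

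Taking the female and male ratios as 2 measurements of the KO effect, limma with a mean-variance trend and Benjamini-Hochberg adjustment called 0 of 10482 genes, which is 0.0% in either direction. At unadjusted p under 0.05, 2079 genes passed, 1079 of them lower, or 10.3% of those tested. Of the 9 members fitted, 6 passed that unadjusted threshold, each lower in both sexes: Smyd1, Mef2c, Akap6, Mef2a, Nfatc2 and Mef2d. Smyd1 had a mean log2 ratio of -1.43 ± 0.21 (moderated SE of limma, which borrows spread from other genes) and an adjusted p of 0.0922. Mef2c had -1.82 ± 0.42 with an adjusted p of 0.116 by limma, and Akap6 -1.36 ± 0.33 with 0.121. The adjusted p of Mef2a was 0.138 by limma, that of Nfatc2 0.146 and that of Mef2d 0.171, and those of Hdac9, Klf5 and Srf were 0.321, 0.354 and 0.535. The difference between the sexes serves as the error in this fit, with 1 residual degree of freedom, so it could not itself be tested. Without genes under 5 FPKM, limma called 130 of 7732 genes, 88 of them lower. Smyd1 was the only member among them, at an adjusted p of 0.0485 by limma. In the main fit the smallest adjusted p of any gene by limma was 0.0505, just over the threshold. Over the alternatives run, the adjusted p of Smyd1 by limma ranged from 0.0485 to 0.663.

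The other genes of the Mef2 and Srf network were grouped by role, in lists written with earlier results of these data known. Among coactivators and partners (Mef2b, the myocardin-related factors Mkl1 and Mkl2, and the Ets partners of Srf, Elk1, Elk3 and Elk4), 0 of 6 genes kept were at least 2-fold lower in KO females and 0 of 5 in either other table, and 1 was at least 2-fold higher in each table, Mef2b in females (1.02 and 3.10 FPKM) and Elk3 in the others. None was 2-fold lower in any table with TPM over all loci, and 1, 1 and 0 were higher. Elk1 is merged with Cfp and Uxt in the male and KI tables. Elk3 stood highest, at 4.65 and 7.95 FPKM in WT and KO females, 3.93 and 18.4 in WT and KO males, and 3.02 and 7.16 in the Ctrl-KI and KI columns. Mkl1 stood lowest of the list over both sexes, at 18.6 and 16.0 FPKM in WT and KO females and 16.1 and 13.3 in WT and KO males. Mrtfa and Mrtfb, current names of Mkl1 and Mkl2, were the 2 list entries not found.

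Of the class II deacetylases and the kinases listed with them, 17 genes were kept in the female table and 16 in each of the others. At least 2-fold lower were 2 in females and 2 in males, and at least 2-fold higher 1 and 1, with 0 either way in KI cells. The rescaled values (TPM over all loci) differed: 2 of 17 were lower in female KO, 4 of 15 in male KO and 4 of 16 in KI cells, and 1, 0 and 0 were higher. Of all genes, 3.14%, 24.6% and 15.7% were at least 2-fold lower on that scale, and 4.4%, 6.47% and 0.893% as deposited. At least 2-fold higher as deposited were 4.49%, 9.9% and 3.86% of all genes. Among the other Mef2-binding deacetylases, Hdac5 was 63.3 and 71.9 FPKM in WT and KO females and 25.5 and 19.2 in WT and KO males. Hdac7 was 24.3 and 27.5 FPKM in females and 5.70 and 15.9 in males. Hdac4 was 7.07 and 6.29 FPKM in females and 4.23 and 5.90 in males. Highest in the list over both sexes was Map2k6, a kinase that activates p38, at 2.04 and 5.16 FPKM in WT and KO females. In WT and KO males Map2k6 was 0.135 and 0.942 FPKM, under 1 FPKM in both columns and so not kept there. Lowest in the list was Camk2a, a calcium/calmodulin-dependent kinase subunit, at 29.4 and 8.13 FPKM in WT and KO females with intervals apart, and at 20.6 and 3.43 FPKM in WT and KO males. In Ctrl-KI and KI cells Camk2a was 18.98 and 20.3 FPKM.

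In the calcineurin and NFAT list 1 of 15 genes was at least 2-fold lower in KO females and 2 of 14 in KO males, and 0 of 15 in KI cells, with 0, 1 and 1 at least 2-fold higher. As TPM over all loci, 0 of 15, 5 of 14 and 3 of 14 were lower and none was higher in any table. With that rescaling 3.14%, 24.6% and 15.7% of all genes were at least 2-fold lower. As deposited, 4.4%, 6.47% and 0.893% of all genes were at least 2-fold lower and 4.49%, 9.9% and 3.86% higher. The listed genes at least 2-fold lower as deposited were Myoz2 in both sexes and Myoz1 in males, both Z-disc proteins that tether calcineurin. Myoz1 is merged with Synpo2l in the male and KI tables. Myoz2 was 23.0 and 10.4 FPKM in WT and KO females and 25.2 and 3.996 in WT and KO males. Rcan2, a calcineurin inhibitor, was the highest, at 5.37 and 5.19 FPKM in females and 1.86 and 4.74 in males. Of the other NFAT genes, Nfatc1 was 5.30 and 3.64 FPKM in WT and KO females and 3.62 and 4.10 in WT and KO males, and Nfatc3 was 15.2 and 13.1 in females and 17.7 and 15.4 in males.

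Other Krüppel-like factors had no member at least 2-fold lower in any table (0 of 12 in females, 0 of 10 in males, 0 of 10 in KI cells), and 1, 1 and 0 were at least 2-fold higher. Their median log2 ratios were 0.47, 0.45 and 0.25, and with TPM over all loci 0.66, -0.21 and -0.39, where the medians of all genes were 0.10, -0.70 and -0.77. Under that scaling 1 of 10 was at least 2-fold lower in males and 0 in the other tables, and 3, 0 and 0 were higher. Klf6 was the highest over both sexes, 52.3 and 101.5 FPKM in WT and KO females and 13.2 and 27.0 in WT and KO males. Klf15 was the lowest, 5.86 and 3.01 FPKM in WT and KO females and 0.959 and 0.581 in WT and KO males, where it was under 1 FPKM in both columns. The Smyd family beside Smyd1, with its partner Naca, had 0 of 5 genes past 2-fold in any of the 3 tables. Naca, whose muscle form skNAC binds Smyd1, was 482 and 378 FPKM in WT and KO females and 417 and 397 in WT and KO males, and Smyd5 was 15.9 and 16.0 in females and 15.3 and 16.1 in males.

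Among A-kinase anchoring proteins and the enzymes they hold, the catalytic subunit Prkaca was lowest and the scaffold Akap12 highest. Prkaca was 142.5 and 61.4 FPKM in WT and KO females and 338 and 129 in WT and KO males. Akap12 was 4.95 and 13.1 FPKM in females, 1.05 and 19.5 in males and 0.811 and 14.7 in the Ctrl-KI and KI columns. In all, 1 of 14 genes was at least 2-fold lower and 2 higher in females, 1 of 13 lower and 2 higher in males, and 0 of 14 lower and 1 higher in KI cells. These counts became 1 of 14, 6 of 13 and 4 of 13 lower and 2, 2 and 1 higher with TPM over all loci. The shares of all genes were then 3.14%, 24.6% and 15.7% lower and 8.81%, 2.47% and 1.83% higher. As deposited these shares were 4.4%, 6.47% and 0.893% lower and 4.49%, 9.9% and 3.86% higher.

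Of 28 muscle genes kept that are described as Mef2 targets, 26 had a ratio below 0 in female KO, 27 in male KO and 23 in KI cells. Of all genes, 56.7%, 51.6% and 57.4% had one. As deposited, 4.4%, 6.47% and 0.893% of all genes were at least 2-fold lower and 4.49%, 9.9% and 3.86% higher. Of the 28 Mef2 targets, 19 were at least 2-fold lower and 1 higher in KO females. In KO males 26 were lower and 0 higher, and the median log2 ratios were -1.15 in females and -2.31 in males. In KI cells 1 was lower and 1 higher, the median was -0.36 and 8 of 28 had intervals apart. The muscle creatine kinase Ckm was the lowest, at 147 and 20.2 FPKM in WT and KO females, 110.0 and 6.82 in WT and KO males, but 143 and 151 in the Ctrl-KI and KI columns. Xirp2, a Mef2-dependent actin-binding protein of the intercalated disc and myotendinous junction, was the highest, at 15.4 and 33.2 FPKM in females, 5.07 and 1.33 in males, and 4.02 and 18.7 FPKM in Ctrl-KI and KI. With TPM over all loci, 14 of 28 Mef2 targets were at least 2-fold lower in female KO, 27 of 27 in male KO and 21 of 28 in KI cells, where the median of the list was -1.18 and that of all genes -0.77. Under that scaling 3.14%, 24.6% and 15.7% of all genes were as low. Genes described as Srf targets split, and their medians of 0.05, 0.65 and 0.67 became 0.15, -0.05 and -0.16 with TPM over all loci. At least 2-fold lower were 4 of 24 genes in female KO and 4 of 23 in KO males, namely Acta1, Actc1, Acta2 and Fhl1 in both, of which the first 3 are actins of striated and smooth muscle. At least 2-fold higher were 0 in female KO, 9 in male KO and 6 of 25 in KI cells. With TPM over all loci, 3.14%, 24.6% and 15.7% of all genes were lower and 8.81%, 2.47% and 1.83% higher. Of the Srf targets, 2 of 25, 7 of 23 and 4 of 24 were then lower and 3, 3 and 1 higher. Acta1, the lowest, was 3278 and 1180.1 FPKM in females and 5658 and 957 in males, and Ctgf, a matricellular growth factor and the highest, was 71.0 and 83.5 FPKM in females, 17.7 and 141 in males and 27.3 and 367 in the Ctrl-KI and KI columns.

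**Figure D4:**
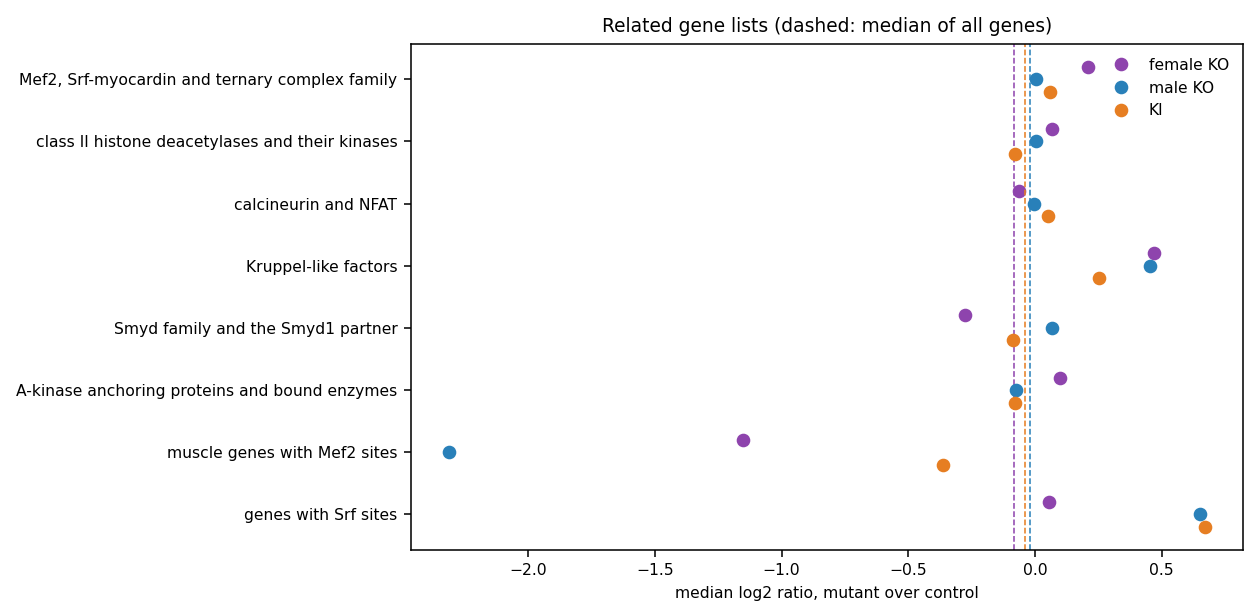
Median log2 ratio, mutant over control (horizontal axis), of 8 related gene lists in the female KO (purple), male KO (blue) and KI (orange) tables, over genes with at least 1 FPKM in a column. Dashed lines mark the median of all genes, and the list of Mef2 targets lies farthest to the left, at -1.15, -2.31 and -0.36.

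Genes whose 3 ratios were nearest to those of Mef2c were sought among 7025 genes with at least 5 FPKM in a column of each table, by Euclidean distance over the log2 ratios of the 3 tables. They were Pdlim3 (distance 0.09), Reep1 (0.18), Cacng1 (0.24), Zdbf2 (0.24) and Gm7325 (0.26). Pdlim3, an actin-associated LIM protein of the Z-disc, had log2 ratios of -0.89, -2.73 and -0.18, and was 322 and 173 FPKM in WT and KO females, 345 and 51.0 in WT and KO males, and 235 and 207 in the Ctrl-KI and KI columns. Cacng1, the gamma subunit of the muscle calcium channel, had ratios of -0.97, -2.82 and 0.01. The likeness rests on 3 ratios.

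Levels of cell type markers in the same columns differed too. Of the myoblast and myocyte markers, all 11 were found above 1 FPKM in the female and KI tables and all 10 found in the male table, so the markers of the labelled tissue were present. Their summed level was 9834 and 4470 FPKM in WT and KO females, 18646 and 5033 in WT and KO males, and 16953 and 13698 in the Ctrl-KI and KI columns, and 5 of 11, 5 of 10 and 0 of 11 were at least 2-fold lower. These counts were 4 of 11, 8 of 10 and 7 of 11 with TPM over all loci, where 3.14%, 24.6% and 15.7% of all genes were as low. As deposited, those shares of all genes were 4.4%, 6.47% and 0.893%. These markers are not separate from the lists above: 4 of the 11 (Ckm, Des, Myog and Tnnt2) are also in the Mef2 list and 2 (Acta1 and Actc1) in the Srf list. In the same columns Myog was 1305 and 817 FPKM, 3424 and 961, and 3201 and 2827, and Pax7 was 4.33 and 5.54, 5.82 and 16.3, and 3.33 and 3.30. Fibro-adipogenic markers summed to 313 and 649 FPKM in females, 94.6 and 198 in males and 78.8 and 405 for Ctrl-KI and KI. Of those kept, 3 of 9, 5 of 7 and 8 of 10 were at least 2-fold higher. However, Tcf21 was listed at 0 in all 3 tables, as was Lum in the male one. Lum was under 1 FPKM in all columns, Dpt in those of both knockout tables, and Pdgfra and Dcn in those of the male one. Of the fibro-adipogenic markers kept, 5 of 9, 2 of 6 and 6 of 8 were at least 2-fold higher with TPM over all loci. On that scale 8.81%, 2.47% and 1.83% of all genes were as high, and 4.49%, 9.9% and 3.86% as deposited. Endothelial markers summed to 22.1 and 33.9, 2.07 and 70.8, and 2.79 and 9.72 FPKM. Of those kept, 0 of 7, 4 of 4 and 1 of 1 were at least 2-fold higher. With TPM over all loci the counts were 1 of 9, 3 of 4 and 0 of 1. Immune markers summed to 9.04 and 16.3 FPKM in females, with 1 of 2 kept at least 2-fold higher, and 1 of 2 and 2 of 3 in the male and KI tables, where Cd68 is merged with 2 other genes and sets the sum of 392.3 and 495 and of 357 and 389 FPKM. Smooth muscle and pericyte markers, among which Acta2 and Des are also expressed by myocytes, had 2 of 9 lower and 1 higher in female KO. They had 1 of 6 lower and 3 higher in male KO, and 0 of 9 lower and 5 higher in KI cells. With TPM over all loci, 1 of 10, 2 of 6 and 2 of 7 were lower and 1, 2 and 3 higher. Myh11, the smooth muscle myosin, was 1.22 and 2.14, 0.0737 and 0.228, and 0.0814 and 0.118 FPKM. Genes under 1 FPKM in a control column were kept only if the mutant column was higher. In bulk RNA, fewer cells of a type and less RNA per cell cannot be told apart, and the part of the cell mixture in the members' ratios was not tested.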

How the data were processed

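RNA of differentiating myoblasts was sequenced in 8 libraries. Build mm9 and the tools TopHat2 2.0.12, Bowtie2 2.2.4, Cuffdiff, Cufflinks 2.2.1, edgeR, bedtools 2.16.2 and HTSeq 0.6.1 are named, without roles, per the submitters' processing notes; the annotation and library scaling are not given in the sources used here. The authors deposited, per the file headers, FPKM with confidence bounds and a status for 2 columns in each of 3 tables. Samples were grouped by title. Loci without a symbol (0 female, 5680 male, 5971 KI) or with a status other than OK (6, 61 and 15 loci with a symbol) were left out, and genes needed 1 FPKM in a column. Locus starts are printed 1 higher than deposited, because 157 of 163 microRNA loci within 5 bases of their RefSeq length match it exactly when starts count from 0. The reference is another build (GRCm38.p6) and served for promoter windows and gene lengths.

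Calls were 2-fold or non-overlapping intervals. The KO effect over both sexes was fitted with limma 3.58.1 in R 4.3.3 over all genes, with Benjamini-Hochberg adjustment at 0.05. The fit was tried on simulated data with the same spread for all genes. That setting cannot check how the fit handles spreads that differ between genes. Tables were handled in Python 3.11.15 with pandas 2.3.3. Named were the 10 members, Kdm6a, the highest and lowest gene of each list with 5 FPKM in a column, and the 5 genes nearest to Mef2c; Myog, Pax7, Myh11, Myoz1, Mef2b, Hdac4, Hdac5, Hdac7, Nfatc1, Nfatc3 and the 2-fold members of the Srf list were added after their values were seen. The members and lists were chosen with earlier results of these data known. FPKM keeps no total count, so depth is unknown. Other settings tried were a pseudocount of 0.1 or 5 FPKM, a minimum of 5 FPKM or none, median-centring, TPM over loci with a symbol or over all loci, intervals as the call, and no trend in limma.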

Additional observations from a re-analysis of the deposited data

Results flagged for a closer look

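Klf5 had log2 ratios of 0.06 in female KO against WT and -1.82 in male KO against WT, 1 library per group, so the libraries of the 2 sexes lay on opposite sides of their controls. The female ratio is close to 0, and the difference between the sexes was not tested.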

How the results depend on the processing

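No paired analysis was possible because the KI and Ctrl-KI libraries, whose titles share replicate numbers, were deposited as 1 pooled column per group, and every other group has 1 library. Single libraries also left none to omit. With non-overlapping intervals as the call, the members called went from 2 to 0 in female KO, from 7 to 0 in male KO and from 0 to 2 in KI cells, and the genes called from 1097 to 111, from 1872 to 99 and from 527 to 1330. A pseudocount of 0.1 FPKM gave 1747 genes in female KO cells. In male KO cells it gave 8 of 9 members, all lower, as did TPM over loci with a symbol. A pseudocount of 5 FPKM gave 442, 918 and 224 genes (female KO, male KO, KI) and 1 member in female KO cells. A filter of 5 FPKM also gave 1 member in female KO cells, with fewer genes tested, and 344 genes in KI cells. TPM over all loci gave 6 members, all lower, and 1881 genes, 1685 of them lower, in KI cells. Over both sexes limma called 0 genes as fitted, and 130 with the filter of 5 FPKM, which tests fewer genes. It called 147 with TPM over all loci, and 1 with TPM over loci with a symbol or a pseudocount of 0.1 FPKM. With TPM over all loci the total degrees of freedom were 9768, against 5.53 as fitted. The error there was borrowed from all genes, and a gene's own difference between the sexes hardly counted. Those 147 calls are therefore not comparable with the other counts. Except where stated, the cause was not tested. Of 183 ratios of members under these alternatives, 166 stayed within the deposited interval of the mutant column set over the control level, a wide bound in the knockout tables, and 17 did not. By size, 16 of the 183 moved by over 1.5 times, 13 of them with TPM over all loci, among them male Mef2a (-2.04), Mef2d (-2.13) and Srf (-0.996). Of 69 means over both sexes, 68 stayed on their side of the threshold and 1, that of Smyd1, passed it, while 2 moved by over 1.5 times, both of Nfatc2 (-1.71 with 0.1 FPKM and -0.42 with 5 FPKM). No 2-fold ratio changed sign. The sign changed for Srf in KI cells (0.01 with median-centring and 0.07 with TPM over loci with a symbol) and for Klf5 in KI cells (-0.50 with TPM over all loci). Intervals of single libraries set the precision in the knockout tables, and those of 2 pooled libraries per column in the KI table.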
